A study of Rattus norvegicus with 6 samples.

Results

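Zinc finger genes whose reference symbols begin with Zfp, Znf, Zbtb, Zkscan or Zscan followed by a digit were examined in the rat whole brain transcriptome. In the annotation deposited with the study, 119 of 24744 quantified loci hold at least 1 reference transcript with such a symbol, and they carry 123 symbols between them. Zfp loci made up 91 of the 119 and Zbtb loci 24, with 2 Znf loci, 1 Zkscan locus and 1 Zscan locus. PolyA RNA was sequenced from 3 naïve male SHR/OlaIpcvPrin rats (SHR, a spontaneously hypertensive inbred strain) and 3 naïve male BN-Lx/CubPrin rats (BNLx, an inbred strain on a Brown Norway background). Each rat gave 1 library, ages were not given in the sources used here, and a whole brain mixes all of its regions and cell types. Total expected counts, the read numbers that the RSEM program assigns to features, ran from 21745966 to 41333078 per SHR library and from 11747048 to 32826625 per BNLx library. In bulk tissue, fewer cells of a type and less RNA per cell cannot be told apart.

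Most of these genes encode proteins with C2H2 zinc fingers, small folds held by a zinc ion that each read a few bases of DNA. Many mammalian Zfp proteins also carry a KRAB domain, which recruits the Trim28 corepressor and the histone methyltransferase Setdb1 to silence chromatin, above all at transposable elements, and their genes lie in tandem clusters of close paralogs. Zbtb proteins carry a BTB domain, through which they dimerize and recruit corepressors. The symbol is not a guarantee of that role: Zfp36l1 and Zfp36l2 bind mRNA through CCCH fingers and speed its decay, and Zbtb8os belongs to the tRNA ligase machinery.

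The members do not cover every rat gene of these families. None of the 27301 transcripts on 11 chromosomes (1 and 10 to 19) carries a reference name in the annotation, and the RefSeq GRCr8 gene table places 301 of its 545 symbols of these families on those chromosomes, so their genes were not analysed here. A locus is a cluster of overlapping transcripts, and 33 of the 119 loci hold further named genes or several zinc finger genes. Of the 678 isoforms in the loci, 532 share exon bases with a zinc finger reference transcript on the same strand, and in 20 loci such isoforms held under 50% of the locus TPM (transcripts per 1000000, which is scaled for length). In the Zfp7 locus they held 1.23%, and in the locus that Zbtb12 shares with the histone methyltransferase gene Ehmt2 they held 5.11%. A change of such a locus need not be a change of its zinc finger gene. The libraries did not keep strand, and 19 loci share exon bases with a locus on the opposite strand, so that reads of the 2 genes cannot be told apart there. Zfp57, a KRAB protein known for keeping methylation at imprinted genes, overlaps the myelin gene Mog in this way. Paralogs also share reads, and 45 of the loci lie in 15 clusters with gaps under 200 kb, the largest of 6 loci.

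Of the 123 symbols, 97 were matched to a RefSeq promoter window of 250 bases before to 50 bases after the start site (GRCr8 build). The windows of Zbtb40 and Zfp956 are shown because their loci had the lowest adjusted p-values among those lower in SHR. Zfp956 shares its locus with Zfp212, and its leading isoform carried most of the decrease. Capitals mark each CG, the dinucleotide that vertebrate DNA methylation targets. The Zbtb40 window (chr5:154567124-154567423, minus strand) holds 16 of them and the Zfp956 window (chr4:78286100-78286399, plus strand) also 16.
Zbtb40: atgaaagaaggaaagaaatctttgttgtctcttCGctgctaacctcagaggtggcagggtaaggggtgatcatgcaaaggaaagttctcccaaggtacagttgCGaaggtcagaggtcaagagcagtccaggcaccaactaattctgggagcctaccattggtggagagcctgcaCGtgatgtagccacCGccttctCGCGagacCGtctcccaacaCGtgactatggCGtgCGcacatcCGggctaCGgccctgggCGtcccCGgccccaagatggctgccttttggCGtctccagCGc
Zfp956: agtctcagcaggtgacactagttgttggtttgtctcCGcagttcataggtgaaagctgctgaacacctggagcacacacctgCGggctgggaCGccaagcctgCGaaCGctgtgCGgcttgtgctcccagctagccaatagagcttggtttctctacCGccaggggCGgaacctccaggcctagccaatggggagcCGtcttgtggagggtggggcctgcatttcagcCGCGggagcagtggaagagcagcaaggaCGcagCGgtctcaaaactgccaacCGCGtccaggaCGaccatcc
In the Zbtb40 window CG is most frequent toward the start site, and in the Zfp956 window after it. Zinc finger promoters held 1 to 46 CG with a median of 18, and 75.3% of them had at least 10. The same share was 84.0% for 4578 promoters of the other named genes tested here and 41.5% for all 33469 promoters of the table. The zinc finger share was thus below that of the other genes read in these brains and above that of the whole table.

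Zinc finger transcripts were present at moderate levels in both strains. The 119 loci took 0.512, 0.527 and 0.521% of all counts in the SHR libraries and 0.497, 0.522 and 0.520% in the BNLx libraries, and these ranges overlapped. Counting only isoforms on zinc finger exons, the median level was 11.6 TPM, and 74 of the 119 loci reached 10 TPM. The median was 13.8 TPM over Zfp loci and 10.4 TPM over Zbtb loci. Whole loci past the filter had a median of 15.7 TPM, against 27.6 TPM for the 5752 tested loci with any reference name.

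Among loci that hold a single named gene, Zfp706, a small zinc finger protein, had the highest level, with 145, 125 and 128 TPM in SHR and 125, 120 and 133 TPM in BNLx. Zfp365, whose product acts at centrosomes and in neurite growth, had 67.0, 157 and 139 TPM in SHR and 120, 150 and 52.7 TPM in BNLx. For Zfp706 the libraries lay close together, whereas Zfp365 was low in SHR replicate 1 and BNLx replicate 3. Zfp385a, an RNA-binding protein with a role in p53 target choice, averaged 78.0 ± 8.90 TPM in SHR and 82.9 ± 25.0 TPM in BNLx (SD, n = 3 each, as throughout). Zfp637 averaged 76.8 ± 6.05 TPM in SHR and 72.4 ± 8.12 TPM in BNLx. The ranges of neighbours in this order overlapped, although the lowest Zfp706 library lay above every library of Zfp385a and Zfp637. Zfp483 followed with 65.8, 68.2 and 66.3 TPM in SHR and 40.7, 47.0 and 57.2 TPM in BNLx.

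Among Zbtb loci with a single named gene, the highest level was that of Zbtb47, at 54.4 ± 8.09 TPM in SHR and 54.1 ± 5.70 TPM in BNLx. Zbtb16, which encodes the transcription factor PLZF, followed with 9.78, 26.7 and 25.3 TPM in SHR and 20.2, 29.4 and 8.72 TPM in BNLx. As for Zfp365, SHR replicate 1 and BNLx replicate 3 were the low libraries. Zbtb40 came next, at 10.9 ± 0.246 TPM in SHR and 14.5 ± 1.1 TPM in BNLx. The lone Zkscan7 and Zscan20 loci were scarce: Zkscan7 averaged 3.61 ± 0.278 TPM in SHR and 3.34 ± 0.142 TPM in BNLx, and Zscan20 2.54 ± 0.396 TPM in SHR and 3.02 ± 0.746 TPM in BNLx.

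**Figure D1:**
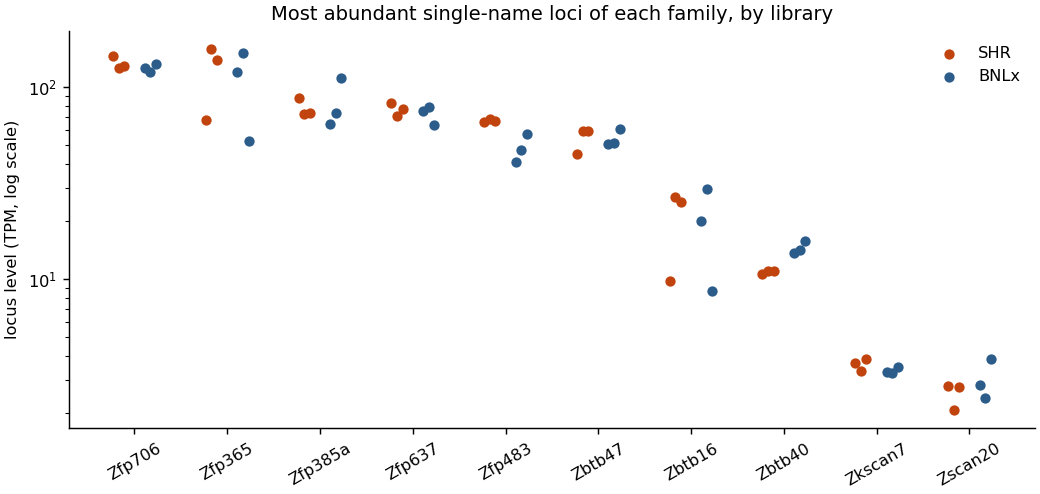
Level of 10 zinc finger loci (horizontal axis) in TPM on a log axis (vertical), 1 point per library, SHR left of BNLx. Zfp706 lay between 120 and 145 TPM in all 6 libraries, while Zfp365 and Zbtb16 each had 1 low library per strain.

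The strain comparison asks which of these loci differ between SHR and BNLx brains. Very few differences were detected, and a locus without a call may still differ. A locus was tested where at least 50 counts were reached in 2 of the 3 replicates of a strain, which 114 of the 119 loci did, the exceptions being Zfp663, Zfp804b, Zbtb8a, Zfp647 and Znf660. Counts were fitted across all loci with the quasi-likelihood test of edgeR (two-sided, Benjamini-Hochberg adjusted over 14471 loci), and a locus was called at an adjusted p of 0.05. Zbtb40 was called lower and Zfp799 higher in SHR, which is 2 of 114 loci, beside 1.02% called among all loci tested (0.504% higher and 0.511% lower in SHR) and 0.591% among those with a reference name. DESeq2 called 3 of the 114, beside 3.75% of all loci tested. At an unadjusted p of 0.05 there were 9 of 114 (7.89%, against 10.2% of all loci tested), 7 of them lower and 2 higher in SHR. The strains did not overlap at 18 of 114 loci, 9 higher and 9 lower in SHR (15.8%, against 17.5% of all loci tested, 8.97% higher and 8.49% lower). These shares are near the background, and from them nothing sets the zinc finger loci apart.

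Changes were also small. The log2 fold change of SHR over BNLx had a median of 0.02 over the 114 loci and ran from -0.69 to 0.66, and 91 of the 114 loci were within 1.2-fold. Its median size was 0.13, beside 0.16 for tested loci with a reference name and 0.18 for all loci tested. Standard errors had a median of 0.15, so that a change of this size was not detectable at most loci with 3 rats a strain.

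**Figure D2:**
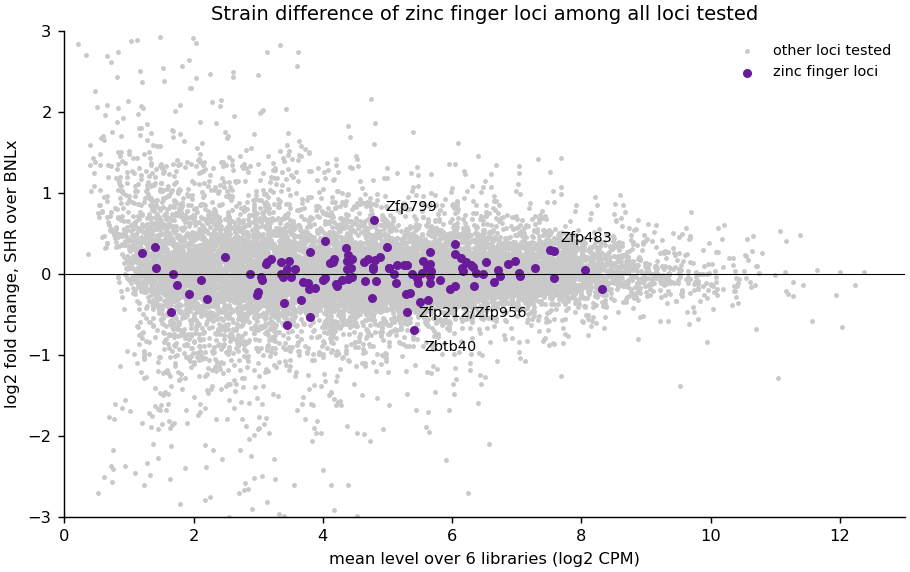
Log2 fold change of SHR over BNLx (vertical) against mean level in log2 CPM (horizontal) for 114 zinc finger loci (purple) and the other loci tested (grey). All 114 zinc finger loci lay between -0.69 and 0.66, and 98 other loci fall outside the axis limits of 3 in either direction.

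Zbtb40, a BTB zinc finger factor, had 33.7, 31.8 and 31.8 CPM in SHR brains, against 47.7, 53.7 and 55.4 CPM in BNLx brains (CPM, counts per 1000000 on TMM-scaled libraries). All 3 SHR libraries were lower than all 3 BNLx libraries. The locus (chromosome 5, 155343758 to 155411111, minus strand, rn6, ENSRNOG00000022039) differed by -0.69 on the log2 scale (SE 0.10, edgeR adjusted p = 0.0490). The decrease was not tied to a single isoform: all 5 isoforms past the filter had a lower mean in SHR, with log2 fold changes from -1.15 to -0.33, and none of them passed p of 0.001 on its own. The adjusted p was between 0.0691 and 0.295 when any library was left out, while the log2 fold change stayed between -0.76 and -0.64. On the log2(TPM + 1) scale in limma the difference was -0.38, with an adjusted p of 0.347.

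Zfp799, a C2H2 gene in a cluster of 6 loci, had 34.4, 32.6 and 35.4 CPM in SHR, against 21.8, 21.3 and 21.5 CPM in BNLx. The groups were far apart for their spread, with SHR higher throughout (chromosome 7, 15056566 to 15079601, minus strand, rn6, ENSRNOG00000032552). The log2 fold change was 0.66 (SE 0.10, edgeR adjusted p = 0.0491). The difference lay in 1 unnamed isoform of 15001 bases, which had 33.3, 28.8 and 31.2 CPM in SHR, against 17.3, 18.0 and 13.9 CPM in BNLx (log2 fold change 0.92, SE 0.17, edgeR adjusted p = 0.131). The shorter annotated isoform of 2046 bases had 0.714, 1.67 and 3.86 CPM in SHR, against 3.07, 0.870 and 7.65 CPM in BNLx, which overlapped.

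Per length, the difference at Zfp799 was much smaller. In TPM the locus had 6.57, 9.01 and 9.43 in SHR, against 7.24, 6.1 and 11.2 in BNLx, a log2 difference of 0.05 in limma on log2(TPM + 1), adjusted p = 0.968. Leaving out any library gave adjusted p-values from 0.0702 to 0.334 for the counts. The cluster that holds Zfp799 shares paralogous sequence, and its 6 loci summed changed by 0.16 on the log2 scale (adjusted p = 0.711). The other members Zfp763, Zfp870, Zfp563, Zfp871 and Zfp472 had log2 fold changes from 0.00 to 0.15 and were not called.

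The locus joining Zfp212 and Zfp956 came next. It had 33.6, 32.8 and 33.5 CPM in SHR, against 44.4, 47.5 and 46.0 CPM in BNLx, lower in every SHR library. Its log2 fold change was -0.46 (SE 0.09), which edgeR did not call (adjusted p = 0.110) and DESeq2 did (adjusted p = 0.000786). The leading Zfp956 isoform accounted for most of it, at 15.1, 14.5 and 15.9 CPM in SHR, against 22.6, 24.2 and 21.5 CPM in BNLx, without overlap. Its 3′ end was placed by aptardi, a predictor of polyadenylation sites, 3923 bases before that of its parent isoform. The isoform had 14.6 TPM and the parent 0.398 TPM, and RSEM divided the reads that they share. The leading Zfp212 isoform, which aptardi ended 1143 bases beyond its parent, had 10.9, 7.91 and 8.13 CPM in SHR, against 8.94, 8.44 and 6.47 CPM in BNLx, with overlap.

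Zfp483, the fifth most abundant single-name locus, had 214, 192 and 198 CPM in SHR, against 143, 162 and 185 CPM in BNLx. Its strains did not overlap, but the lowest SHR library stood close to BNLx replicate 3, and it was not called (log2 fold change 0.30, SE 0.13, edgeR adjusted p = 0.508).

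**Figure D3:**
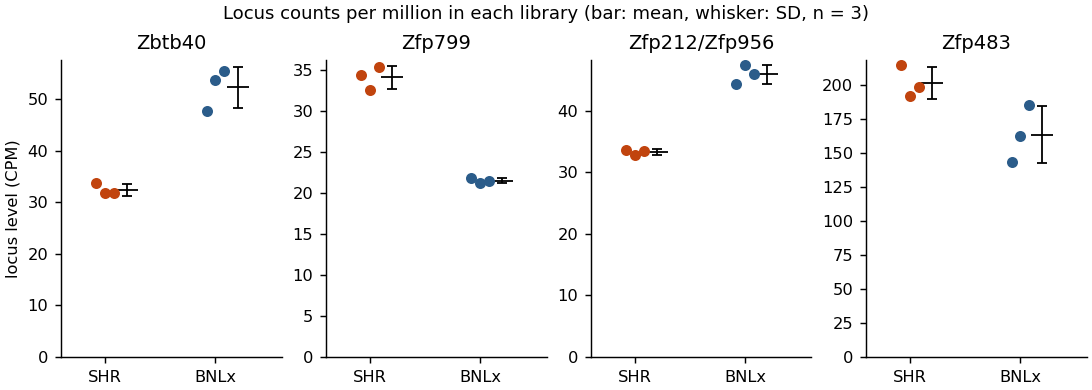
CPM (vertical) of 4 zinc finger loci in each library, SHR left of BNLx, with mean and SD. Zbtb40 and the Zfp212/Zfp956 locus were lower, and Zfp799 and Zfp483 higher, in all 3 SHR libraries than in all 3 BNLx libraries.

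By role, Zbtb40 was the 1 member of the lists that was called. Of 23 listed BTB factors, 13 were present and tested, 1 of them was called (the share among all loci tested was 1.02%), and their median log2 fold change was 0.11, beside 0.00 for all loci tested. Zbtb7a, a repressor of the BTB class in a locus shared with Dapk3, had the largest locus level on the list, 80.5, 97.9 and 99.3 TPM in SHR and 91.0, 87.3 and 91.9 TPM in BNLx. Of 13 listed proteins that bind RNA or have another non-classical role, 5 were tested and edgeR called 0 (0 also at an unadjusted p of 0.05, and 0 in DESeq2). Zfp36l1 had 23.6, 26.4 and 25.6 TPM in SHR and 20.2, 19.3 and 23.9 TPM in BNLx. Of 14 listed genes of neural development and disease, 6 were tested and edgeR called 0 (0 at an unadjusted p of 0.05, and 0 in DESeq2). Zfp335, required for neuron production, had 24.6, 31.1 and 28.9 TPM in SHR and 26.6, 28.7 and 29.3 TPM in BNLx.

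Imprinting factors and readers of methylated CG gave the same picture: 4 of 5 listed were tested and edgeR called 0 (0 at an unadjusted p of 0.05, and 0 in DESeq2). Zfp445, a KRAB protein of imprint maintenance, had 21.7, 31.8 and 28.9 TPM in SHR and 22.7, 23.0 and 24.6 TPM in BNLx. Zfp57 had 29.0, 26.9 and 25.4 TPM in SHR and 26.4, 23.8 and 40.8 TPM in BNLx, and the overlapping Mog locus 196, 138 and 95.0 TPM in SHR and 263, 183 and 347 TPM in BNLx. Both were highest in BNLx replicate 3, and the part of Mog reads in the Zfp57 values was not tested.

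Partners of these factors outside the symbol rule were looked up by the same test. At a share of 1.02% called among all loci, lists of this size would hold few calls or none, so their counts say little about the lists. Of 14 listed corepressors of KRAB proteins, 9 were tested and edgeR called 0 (0 at an unadjusted p of 0.05, and 0 in DESeq2), with a median log2 fold change of 0.06. Setdb1 had 24.8, 29.0 and 27.5 TPM in SHR and 23.9, 24.3 and 25.1 TPM in BNLx. Cbx3, a heterochromatin protein that reads the mark Setdb1 writes, had 184, 154 and 157 TPM in SHR and 169, 160 and 157 TPM in BNLx. Of 9 listed BTB corepressors, 4 were tested and edgeR called 0 (0 at an unadjusted p of 0.05, and 0 in DESeq2). Of 64 listed C2H2 factors with other symbols, 29 were tested and edgeR called 0 (1 at an unadjusted p of 0.05, and 0 in DESeq2), with a median log2 fold change of 0.14.

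At the level of isoforms, some fold changes were larger than those of whole loci. The counts of calls are not on the same threshold, since loci were called at an adjusted p. Of the 678 isoforms, 384 passed the filter, 306 of them on zinc finger exons. At an unadjusted edgeR p of 0.001, the threshold of the study's methods, 9 of 384 were called (2.34%, beside 1.00% of 32348 isoforms tested), 3 higher and 6 lower in SHR. DESeq2 called 19 of the 384, beside 3.60% of all isoforms. Without SHR replicate 1 the edgeR count was 5, without SHR replicate 2 it was 4, and it ran from 6 to 8 without any other library. With replicate number as a further term it was 0, with 32 isoforms at an unadjusted p of 0.05. On zinc finger exons 6 of 306 were called (1.96%), in the Zfp161, Zfp955a, Zfp9, Zfp560 and Zfp317 loci. The other 3 lie in a locus that joins Zfp251 with Arhgap39, Lrrc24 and MGC94207, and they overlap exons of Lrrc24 and not of Zfp251. Adjusted over all isoforms, 4 of the 9, out of 384 tested, kept an adjusted p of 0.05 or less. On zinc finger exons they were 2 of 306, and the share among all isoforms tested was 0.532%. Of the 9 called isoforms, 7 had 0 counts, as rounded, in all libraries of 1 strain. The same share over all called isoforms is not given here, so this count does not set the zinc finger loci apart. With at least 50 counts in every library of the other strain, 6 of 384 isoforms had this pattern (1.56%), beside 0.433% of all isoforms tested. They include STRG.28950.3 and STRG.28950.4 of the Zfp251 locus, which are not on zinc finger exons. STRG.35627.1 and STRG.35627.4 are both from Zfp161. The 6 are thus neither all zinc finger isoforms nor separate loci.

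Zfp161, listed by RefSeq as Zbtb14, a BTB zinc finger repressor, showed the cleanest exchange. STRG.35627.1 had 15.5, 14.6 and 13.8 CPM in SHR and 0 counts in all BNLx libraries. STRG.35627.4 had 0 counts in all SHR libraries, against 13.2, 17.4 and 13.6 CPM in BNLx. Each strain thus read 1 isoform at about the level at which the other strain read its counterpart.

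The 2 Zfp161 isoforms start and end at the same bases and differ by 20 bases alone, from 117742917 to 117742936 of chromosome 9 (rn6, plus strand). STRG.35627.1 lacks these bases, which lie inside the last exon of the reference transcript (117740996 to 117744300). Whether the strains differ in the DNA sequence of this stretch was not tested. SHR was at least 74.1-fold higher for STRG.35627.1, counted against 3 counts per BNLx library (edgeR adjusted p = 0.0189), and at least 126-fold lower for STRG.35627.4, against 3 counts per SHR library (adjusted p = 0.0193). Both isoforms were called in all 6 fits that left out a library. These bounds cover counting error only. STRG.35627.1 took 90.5 ± 5.81% of the locus counts in SHR, and STRG.35627.4 took 87.3 ± 6.70% in BNLx. The locus as a whole did not differ by the test (log2 fold change -0.05, SE 0.14, edgeR adjusted p = 0.938).

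Gaps between exons as short as this were rare. Among 30604 tested isoforms with several exons, 295 (0.964%) had a gap under 50 bases, a limit chosen after the Zfp161 values were seen. Of these 295, 29 (9.83%) were called, against 0.848% of the 30309 others. STRG.35627.1 itself is among the 29, and isoforms of a locus with the same gap were counted separately. The contrast is thus a description and no test. Of the 7 tested isoforms with such a gap in zinc finger loci, STRG.35627.1 was the 1 called. Further 20-base gaps stood in 3 Zfp955a isoforms below the filter, which had from 0 to 4.17 CPM in SHR and 0 CPM in all BNLx libraries. In the Zfp251 locus, STRG.28950.3 and STRG.28950.4, which overlap Lrrc24, differ by 19 bases, and both had 0 counts in SHR, against means of 13.6 and 10.03 CPM in BNLx.

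Zfp955a, a zinc finger gene that shares exon bases with loci on the opposite strand, differed in the counts assigned to its transcript ends. The annotated isoform STRG.26763.6 had 4.07, 6.33 and 5.24 CPM in SHR and 0 counts in all BNLx libraries. Its counterpart with a 3′ end that aptardi, a predictor of polyadenylation sites, placed 1109 bases further had 23.0, 21.0 and 26.7 CPM in SHR, against 27.6, 27.2 and 28.2 CPM in BNLx. The longer form was the main one in both strains, at 54.0% of the locus counts in SHR and 61.3% in BNLx. The short form was assigned counts in SHR alone. All of its bases also lie in the longer form, so its counts rest on how RSEM divided shared reads. SHR was at least 26.4-fold higher for the short form (edgeR adjusted p = 0.0514), which was called in 3 of the 6 fits that left out a library.

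Zfp560 and Zfp9 also shifted between isoforms. STRG.30228.1 of the Zfp560 locus had 4.93, 2.62 and 4.23 CPM in SHR and 0 counts in all BNLx libraries, at least 19.9-fold higher in SHR (edgeR adjusted p = 0.0807). It was called in 2 of the 6 fits that left out a library. STRG.30228.3, which lacks an exon of 83 bases (chromosome 8, 21384053 to 21384135, rn6) and is otherwise identical, had 2.29, 2.29 and 2.53 CPM in SHR, against 4.02, 7.22 and 7.97 CPM in BNLx. The form with the exon was read in SHR alone, and the form without it was lower there in every library.

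In the Zfp9 locus, which also overlaps a locus on the opposite strand, STRG.18417.2 had 2.00, 1.48 and 0.965 CPM in SHR, against 11.6, 9.23 and 9.47 CPM in BNLx, a log2 fold change of -2.76 (SE 0.36, edgeR adjusted p = 0.0530). STRG.18417.1, whose 3′ end lies 1409 bases upstream and whose first exon differs, had 4.76, 8.57 and 6.98 CPM in SHR, against 3.01, 3.05 and 3.79 CPM in BNLx. The short form took 77.8% of the locus in SHR and 24.7% in BNLx, and the long form 18.4% in SHR and 75.2% in BNLx. The call on the long form was kept in 2 of the 6 fits that left out a library. A reference transcript of U4, a spliceosomal RNA, lies in the stretch that only the long form covers.

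Zfp317, a KRAB zinc finger gene with 10 isoforms past the filter, differed in a low isoform. Its aptardi isoform STRG.30210.8.1, 1449 bases longer than the annotated STRG.30210.8, had 0 counts in SHR, against 3.87, 7.22 and 2.76 CPM in BNLx. This was at least 39.3-fold lower in SHR (edgeR adjusted p = 0.0870). Without BNLx replicate 1 or BNLx replicate 2 the isoform was not tested, and no other fit that left out a library called it. STRG.30210.8 had 3.17, 0.190 and 2.39 CPM in SHR and 0 counts in BNLx (edgeR adjusted p = 0.401). Its bases all lie in STRG.30210.8.1, so here too RSEM divided shared reads. A similar single-exon isoform of Zfp770, STRG.13789.4.1, lay just outside the threshold, with 0 counts in SHR, against 4.85, 5.22 and 1.89 CPM in BNLx (edgeR adjusted p = 0.102). For Zfp707, STRG.28862.10 had 3.95, 3.67 and 4.0 CPM in SHR, against 7.26, 6.53 and 6.87 CPM in BNLx, lower in every SHR library but not called (log2 fold change -0.83, edgeR adjusted p = 0.323).

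**Figure D4:**
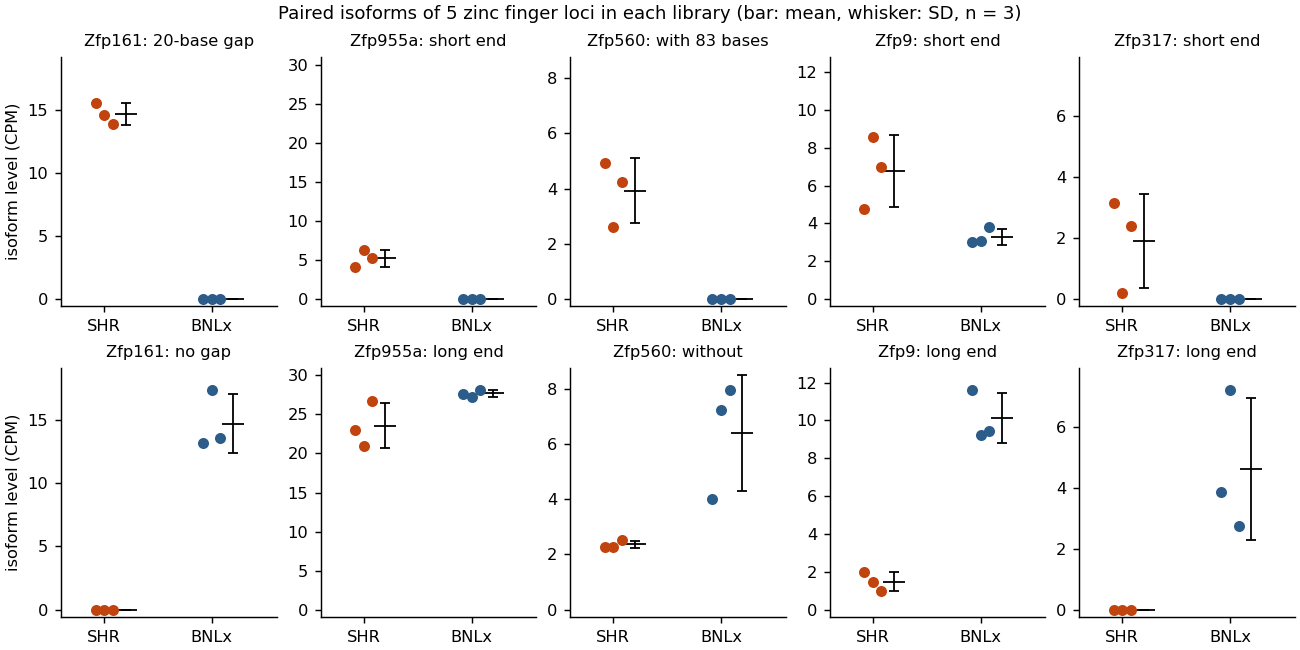
CPM (vertical) of paired isoforms of Zfp161, Zfp955a, Zfp560, Zfp9 and Zfp317 in each library, SHR left of BNLx, with mean and SD. Zfp161 showed 15.5, 14.6 and 13.8 CPM in SHR for the form with the 20-base gap and 13.2, 17.4 and 13.6 CPM in BNLx for the form without it.

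Isoform usage within a locus was tested next with diffSpliceDGE of edgeR (adjusted p of 0.05). Usage differed at 9 of 89 zinc finger loci tested (10.1%), beside 4.34% of 7742 loci tested and 4.80% of those with a reference name. The 9 were Zfp955a (adjusted p = 8.44e-07), Zfp251, Zfp770, Zfp560, Zfp161 (adjusted p = 1.49e-05), Zfp9 (adjusted p = 0.00106), Zfp212/Zfp956, Znf740 and Zfp317. None of the 9 was called at the level of the whole locus. In 5 of the 9 the locus holds several named genes, and in the Zfp251 locus the called isoforms belong to Lrrc24. Among loci with a single name, 4 of 60 were called. With limma on voom weights usage differed at 5 of 89 loci, beside 2.03% of all loci tested. These were Zfp251, Zfp161, Zfp9 and Zfp212/Zfp956 of the 9, and Zfp142. The adjusted p under voom weights was 0.115 for Zfp955a, 0.272 for Zfp560, 0.316 for Zfp770, 0.585 for Znf740 and 0.576 for Zfp317.

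Znf740, a C2H2 gene, rested on a low isoform: STRG.29848.8 had 2.64, 2.14 and 6.66 CPM in SHR, against 0, 0 and 0.237 CPM in BNLx. This was 5.35% of the locus counts in SHR and 0.0910% in BNLx. Its usage call was kept in 2 of the 6 fits that left out a library, that of Zfp317 in 3 and that of Zfp770 in 4. Zfp955a, Zfp251, Zfp560, Zfp161, Zfp9 and Zfp212/Zfp956 kept it in all 6. Of these, Zfp955a and Zfp560 lost it under voom weights. Zfp161 lost it with replicate number as a further term (diffSpliceDGE adjusted p = 0.0916). The count of usage calls was 14 of 83 without SHR replicate 1 and 15 of 88 without BNLx replicate 3. Shares over all loci are not given for these fits. Leaving out both libraries gave 26 of 79 (32.9%), beside 28.2% of 7127 loci tested, which is near the background.

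Zinc finger loci also received many new 3′ ends. Aptardi added isoforms at 57 of the 119 loci (47.9%), beside 27.7% of the 8336 loci with a reference name. Of its 176 isoforms there, 106 ended further downstream than their parent (60.2%), beside 35.4% of all 11559 aptardi isoforms. The longer ones extended the parent by a median of 984 bases, and the shorter ones ended a median of 1043 bases before it. Several isoforms can share an end: counted as separate ends, 46 of 86 were downstream of every parent (53.5%), beside 35.6% of all 6584 ends. These are properties of the annotation and carry no test.

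Among aptardi isoforms on zinc finger exons, the one with the highest level was in Zfp483, 4655 bases longer than its parent, at 47.2 TPM against 2.53 TPM for the parent. That isoform had 166 ± 25.5 CPM in SHR and 136 ± 12.6 CPM in BNLx, a difference within the spread. In Zbtb7a the isoform that was 2779 bases longer had 26.1 TPM, against 4.33 TPM for its parent.

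Within their strains, SHR replicate 1 and BNLx replicate 3 differed most from the remaining libraries. The chi-square per degree of freedom between replicates over zinc finger loci was 40.5 to 49.2 for pairs with SHR replicate 1 and 2.54 for the other SHR pair, and 31.1 to 36.2 for pairs with BNLx replicate 3 and 4.99 for the other BNLx pair. Several members deviated in the same direction in both. Zbtb16, Zfp365, Zfp697, Zbtb46 and Zbtb34 were low in both, and Zfp804a, whose human counterpart is associated with schizophrenia, was high in both, at 14.8, 8.55 and 8.19 TPM in SHR and 6.71, 6.18 and 22.6 TPM in BNLx. Over the 114 loci the 2 deviations had r = 0.44 (a description across loci, which are not independent), and 0.28 over all loci tested.

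Some other C2H2 factors also differed in these libraries. Zic1, a C2H2 factor of the cerebellum, had 70.4, 11.9 and 12.1 TPM in SHR and 9.02, 7.56 and 83.2 TPM in BNLx. The activity-dependent Egr4 had 29.3, 52.9 and 46.1 TPM in SHR and 31.2, 42.0 and 0.850 TPM in BNLx. Cell type markers did not all follow 1 pattern. The choroid plexus marker Kcnj13 had 26.7, 5.09 and 9.10 TPM in SHR and 25.3, 2.58 and 25.4 TPM in BNLx, high in BNLx replicate 1 as well. Of the neuronal markers, Snap25 had 1223, 2269 and 2250 TPM in SHR and 2781, 3637 and 2107 TPM in BNLx. Snap25 was lowest in SHR replicate 1 and in BNLx replicate 3. Syt1 had 506, 860 and 809 TPM in SHR and 619, 728 and 447 TPM in BNLx, with the same libraries lowest. Gad1 had 349, 158 and 151 TPM in SHR and 178, 185 and 191 TPM in BNLx, high in SHR replicate 1 and close together in BNLx.

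EdgeR called none of the glial markers Mobp, Mog and Slc1a3 between the strains at an adjusted p of 0.05. Of 3 oligodendrocyte markers tested, however, 2 (Mobp and Mog) had an unadjusted edgeR p of 0.05 or less, and DESeq2 called 1 of the 3. The 1 astrocyte marker tested, Slc1a3, had an unadjusted edgeR p of 0.0299. Mobp, a myelin gene, had 567, 519 and 354 TPM in SHR, against 919, 665 and 1610 TPM in BNLx, lower in every SHR library (log2 fold change -1.39, SE 0.35, edgeR adjusted p = 0.225). For Mog the log2 fold change was -0.96 (edgeR adjusted p = 0.411), with overlap. Slc1a3, an astrocyte transporter, had 391, 427 and 383 TPM in SHR, against 303, 290 and 256 TPM in BNLx, higher in every SHR library (log2 fold change 0.41, SE 0.15, edgeR adjusted p = 0.408). Neuronal and glial markers were present, as the tissue label gives. The part of tissue composition in the zinc finger values was not tested.

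**Figure D5:**
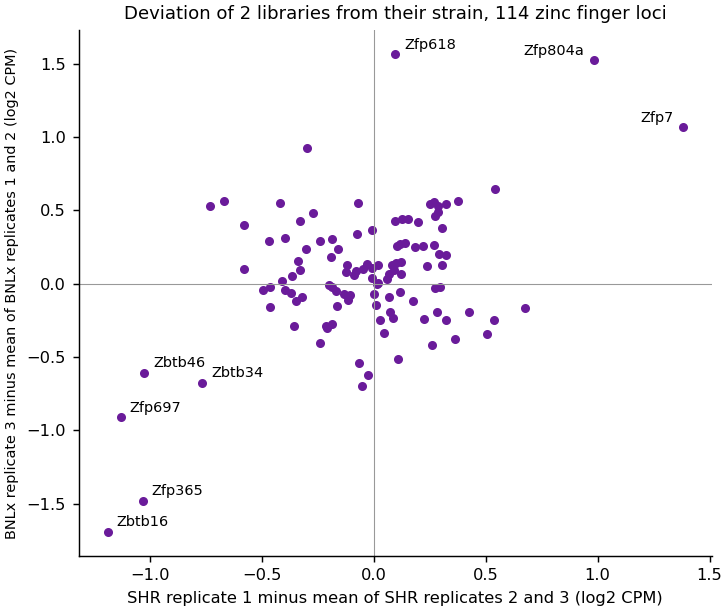
Deviation in log2 CPM of SHR replicate 1 from the mean of SHR replicates 2 and 3 (horizontal) and of BNLx replicate 3 from the mean of BNLx replicates 1 and 2 (vertical), 1 point per zinc finger locus. Zbtb16 (-1.19 and -1.69) and Zfp365 (-1.03 and -1.48) were low and Zfp804a (0.98 and 1.52) was high in both libraries.

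Without SHR replicate 1 and BNLx replicate 3, edgeR called 18 of 113 zinc finger loci (15.9%), 12 higher and 6 lower in SHR, beside 31.5% of 13932 loci. Zbtb40 (log2 fold change -0.67, adjusted p = 0.00464) and Zfp799 (0.65, adjusted p = 0.00647) were among them. The libraries left out were the furthest from their strains in these same counts, so their removal lowers the spread within strains. Calls over all loci were 1.02% with every library kept. The adjusted p-values of this fit are therefore no further support for any locus. Zfp462, a neural development gene, was among the loci added, with a log2 fold change of 0.63 (adjusted p = 0.00417), as was Zfp292 at 0.40 (adjusted p = 0.0108). With all libraries kept, Zfp462 had a log2 fold change of 0.16 (edgeR adjusted p = 0.894) and Zfp292 0.27 (edgeR adjusted p = 0.554). Zfp462 had 42.8, 54.1 and 51.4 CPM in SHR and 32.9, 35.1 and 65.1 CPM in BNLx. Its highest library was thus BNLx replicate 3, which this fit left out.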

How the data were processed

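Whole-brain polyA RNA was sequenced from 3 rats per strain (2 × 100 bases, unstranded). Per the labels and the study's methods, the authors trimmed reads, aligned them with HISAT2 to strain genomes made from rn6, built transcripts in StringTie 1.3.5 with Ensembl 99 as a guide, let aptardi (a model trained on human brain) refine 3′ ends and estimated abundances with RSEM. The values the authors deposited are expected counts per isoform and locus, not normalized, and TPM, scaled within each library. Which genome sequence RSEM read is not given in the sources used here. Lanes of single libraries were not given in the sources used here, so lane and strain cannot be told apart.

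Members were loci whose reference symbol matched the rule. Members and lists were chosen with earlier results of these data known. Expected counts were rounded, filtered (50 counts in 2 of 3 replicates of a strain), TMM-scaled and fitted across all loci or isoforms with edgeR 4.0.16 in R 4.3.3, with strain as the only term. Total counts per library set the precision of low isoforms. DESeq2 1.42.0 and limma 3.58.1 on log2(TPM + 1) and log2(TPM + 0.1) were alternatives, beside other scalings, filters, dispersion, rounding, cluster sums, a replicate block and libraries left out. Restricting the isoform count to zinc finger exons was chosen after seeing the data. Scripts were tested on simulated data. Named loci are those called (up to 15 per test), the most abundant single-name loci per family, isoforms read in 1 strain alone, and Zfp955a, Zfp317, Zfp707, Zfp770 and Zbtb40. Zfp483 in the strain comparison, Zfp292, Zfp462, Zfp804a, Zfp697, Zbtb46, Zbtb34, Zfp142, the partner and marker genes given and the Zfp212/Zfp956 locus levels were named after their values were seen. RefSeq (GRCr8) supplied promoter windows and synonyms.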

Additional observations from a re-analysis of the deposited data

How the results depend on the processing

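Loci called by edgeR numbered 2 of 114 and stayed at 2 with RLE size factors, filterByExpr, unrounded counts or single-name loci, and DESeq2 called 3. They were 1 of 87 with clusters summed, 18 without SHR replicate 1 and BNLx replicate 3, and 0 with library size only, no filter, robust dispersion, limma on log2(TPM + 1) or log2(TPM + 0.1), or the replicate block (7, 8, 9, 9, 9 and 5 loci at an unadjusted p of 0.05). Leaving out any library gave 0 calls, with 4 to 13 loci at an unadjusted p of 0.05. Called isoforms numbered 9, 19 in DESeq2, 4 at an adjusted p of 0.05, 0 with the replicate block (32 at an unadjusted p of 0.05) and 4 to 8 with a library left out. The other alternatives gave 6 to 11. Usage calls numbered 9, 5 with limma on voom weights, 4 of 60 among single-name loci and 10 with the replicate block. They numbered 6 to 15 with a library left out. Without SHR replicate 1 and BNLx replicate 3 they were 26 of 79 (32.9%), beside 28.2% of 7127 loci tested. Correlations of same-numbered deviations were -0.036, 0.318 and -0.198, and those of the other pairs ran from -0.328 to 0.247. Deviations from the mean of 3 rats depend on each other, so these values cannot decide whether replicate numbers pair the rats. No fold change of a called locus or isoform turned its direction under any alternative in which it was tested. Of these values, 24 of 34 for loci, 33 of 151 for isoforms and 16 of 81 for usage lost the call, and the cause was not tested. The usage call of Zfp161 was lost with the replicate block (adjusted p = 0.0916). At 11747048 counts in the smallest library, isoforms read at a few CPM rest on few reads. No alternative depth was run, and names were absent for 11 chromosomes.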

Other observations

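The position of SHR replicate 1 within its strain followed transcript length. Its deviation from the other SHR libraries had a Spearman correlation of -0.49 with effective length over the 114 zinc finger loci and of -0.37 over all loci tested, and that of BNLx replicate 3 had 0.11 and 0.13. These are descriptions across loci of 1 library, and loci are not independent. Zfp7, with an effective length of 902 bases, was among the highest in both libraries (1.38 and 1.07 in log2 CPM), and isoforms on Zfp7 exons held 1.23% of its locus TPM. Zfp618, at 8567 bases, deviated by 1.56 in BNLx replicate 3 and by 0.10 in SHR replicate 1.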
